A study of Mus musculus with 19 samples.

Results

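The genes described here are 10 immediate early genes, namely Fos, Fosb, Junb, Egr1, Egr2, Egr4, Arc, Npas4, Nr4a1 and Ier2. They were named as a list by symbol and not by a measured value, but earlier results of these data were known when the list was chosen. Each symbol matched 1 gene ID, and the members are 10 of the 39017 genes in the tables. Their ribosome-bound mRNA was read in spiny projection neurons of the striatum of female mice by translating ribosome affinity purification (TRAP), in which ribosomes carrying a green fluorescent L10a protein are pulled down together with the mRNA they hold. The groups were D1 neurons of Drd1::EGFP-L10a mice at 2 years (old D1) and at 42 days (young D1), and D2 neurons of Drd2::EGFP-L10a mice at 2 years (old D2) and at 42 days (young D2), with 4 libraries in each of the 4 groups. All mice had a background that the labels spell C56BL/6J, and every group carries the tagged ribosomal protein, so no group without the transgene serves as a control. The tag marks cells by the activity of a dopamine receptor gene, so any other striatal cell in which that gene is active would enter the pulldown too. The series also lists 3 ribosome profiling samples of a fibroblast line, which were not analysed here.

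Immediate early genes are transcribed within minutes of a stimulus, without new protein synthesis, after calcium, cyclic AMP and kinase signals act on factors such as CREB and SRF that already sit in the nucleus. Most encode transcription factors that go on to switch on later genes, and their mRNAs are short lived, so a level read at one moment depends on what the cell met shortly before. In the striatum, dopamine acting through Drd1 and glutamate from cortex are the classical inducers in D1 neurons, and loss or blockade of dopamine signalling through Drd2 is the classical inducer in D2 neurons. Levels here are those of mice whose recent activity the labels do not describe.

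The promoters of 7 of the 10 genes (Fos, Fosb, Junb, Egr2, Egr4, Npas4 and Nr4a1) are in the RefSeq table for GRCm38.p6. The 250 bases before the start are shown, 5′ to 3′ on the gene's strand, for the pair of members with the largest called fall with age in D1 neurons (Nr4a1 and Egr4) and for the gene whose values ran the other way (Fosb). Capitals mark the cyclic AMP response element core, TGACG or CGTCA, to which CREB binds. The windows are chr15:101266596-101266845 on the plus strand for Nr4a1, chr6:85513590-85513839 on the minus strand for Egr4 and chr7:19310046-19310295 on the minus strand for Fosb.
Nr4a1: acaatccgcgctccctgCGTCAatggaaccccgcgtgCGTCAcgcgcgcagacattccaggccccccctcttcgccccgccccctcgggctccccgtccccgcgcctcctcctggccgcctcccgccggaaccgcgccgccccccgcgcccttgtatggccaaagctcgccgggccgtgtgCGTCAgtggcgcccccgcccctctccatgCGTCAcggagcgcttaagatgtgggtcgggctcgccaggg
Egr4: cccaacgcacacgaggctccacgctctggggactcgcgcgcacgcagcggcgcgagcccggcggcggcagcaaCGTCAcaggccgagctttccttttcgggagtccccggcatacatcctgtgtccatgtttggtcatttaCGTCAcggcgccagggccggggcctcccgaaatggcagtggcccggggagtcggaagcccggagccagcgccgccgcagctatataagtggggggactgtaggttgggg
Fosb: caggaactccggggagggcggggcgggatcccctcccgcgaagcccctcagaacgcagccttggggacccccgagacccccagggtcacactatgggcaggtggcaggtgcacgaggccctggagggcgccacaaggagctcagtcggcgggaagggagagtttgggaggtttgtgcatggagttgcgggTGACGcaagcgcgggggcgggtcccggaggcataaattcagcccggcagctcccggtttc
The Nr4a1 window holds the core at 233, 213, 69 and 40 bases before the start. Egr4 holds it at 177 and 109 bases, and Fosb at 60 bases. A search of both strands, from 250 bases before to 50 after the start, found the core in at least 1 window of 7 of the 7 genes, against 23.0% of all 27025 genes with a RefSeq window. A gene counts when any of its windows holds the letters, and Egr2 has 5 windows. The full element TGACGTCA, which contains both cores, was in 0 of the 7 (2.03% of all genes). A CArG box, to which SRF binds, was in 1 of the 7, Egr2 (1.81% of all genes). The AP-1 site TGAGTCA or TGACTCA, to which Fos and Jun proteins bind, was in 0 of the 7 (5.95% of all genes), and the EGR site GCGTGGGCG or CGCCCACGC was in 0 of the 7 (0.707% of all genes). A match of letters is a description of these windows and not a binding site. The core was present in Nr4a1 and Egr4 and in Fosb alike.

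The 16 libraries hold 27484038 to 70903004 assigned fragments. The 4 old D1 libraries differ from the remaining 12, with a count for 10369 to 13705 genes against 12783 to 15000 and a mean fragment length of 151 to 164 bases against 170 to 195. Gm42418, a gene that overlaps ribosomal RNA repeats, takes 4.45% to 5.41% of their fragments against 9.76% to 18.2%. The index sequences in the labels end in letters shared by no other group in old D1, so index and group cannot be told apart there. In old D2, replicate 4 is the shallowest library of all (27484038 fragments). By edgeR 10 of 10 D1 markers are called higher in D1 than in D2 neurons at both ages, and 7 of 8 D2 markers at 42 days and 8 of 8 at 2 years are called lower. The median log2 fold change of the D1 markers, D1 over D2, is 4.92 at 42 days and 3.14 at 2 years, and Drd1 stands higher in old D2 than in young D2 neurons, as given with the D2 age comparison.

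Levels are given as TPM, a measure relative to all transcripts of the library and corrected for gene length, for replicates 1 to 4 in that order. Egr1, the zinc-finger factor also called Zif268, was the most abundant member in all 16 libraries and held 70.3% to 92.5% of the members' summed TPM. In young D1 neurons Egr1 averaged 482 ± 106 TPM, Nr4a1 47.0 ± 20.4, Arc 37.2 ± 13.4 and Egr4 32.5 ± 24.5 TPM (SD, n = 4). The spreads of Nr4a1, Arc and Egr4 overlap, and so do those of the lower members, from Egr2 (17 ± 11.2 TPM) and Junb (12.4 ± 5.93 TPM) down to Fos (5.04 ± 3.82 TPM), Npas4 (4.39 ± 2.69 TPM) and Fosb (2.90 ± 2.44 TPM). Young D2 neurons had the same gene at the top, with Egr1 at 658 ± 85.1 TPM, then Arc at 48.1 ± 9.03, Nr4a1 at 39.6 ± 16.6 and Egr2 at 31.9 ± 22.5 TPM. Ier2 was at 0.51 TPM or less in 15 of the 16 libraries and at 8.87 TPM in young D1 replicate 4, above Fos, Fosb, Junb and Npas4 in that library. In old neurons the order below Egr1 differed. Fos, at 9.30 ± 10.4 TPM, ranked 3 in old D1 neurons on the strength of 2 libraries, and Fosb, at 14.9 ± 6.54 TPM, ranked 4 in old D2 neurons.

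**Figure D1:**
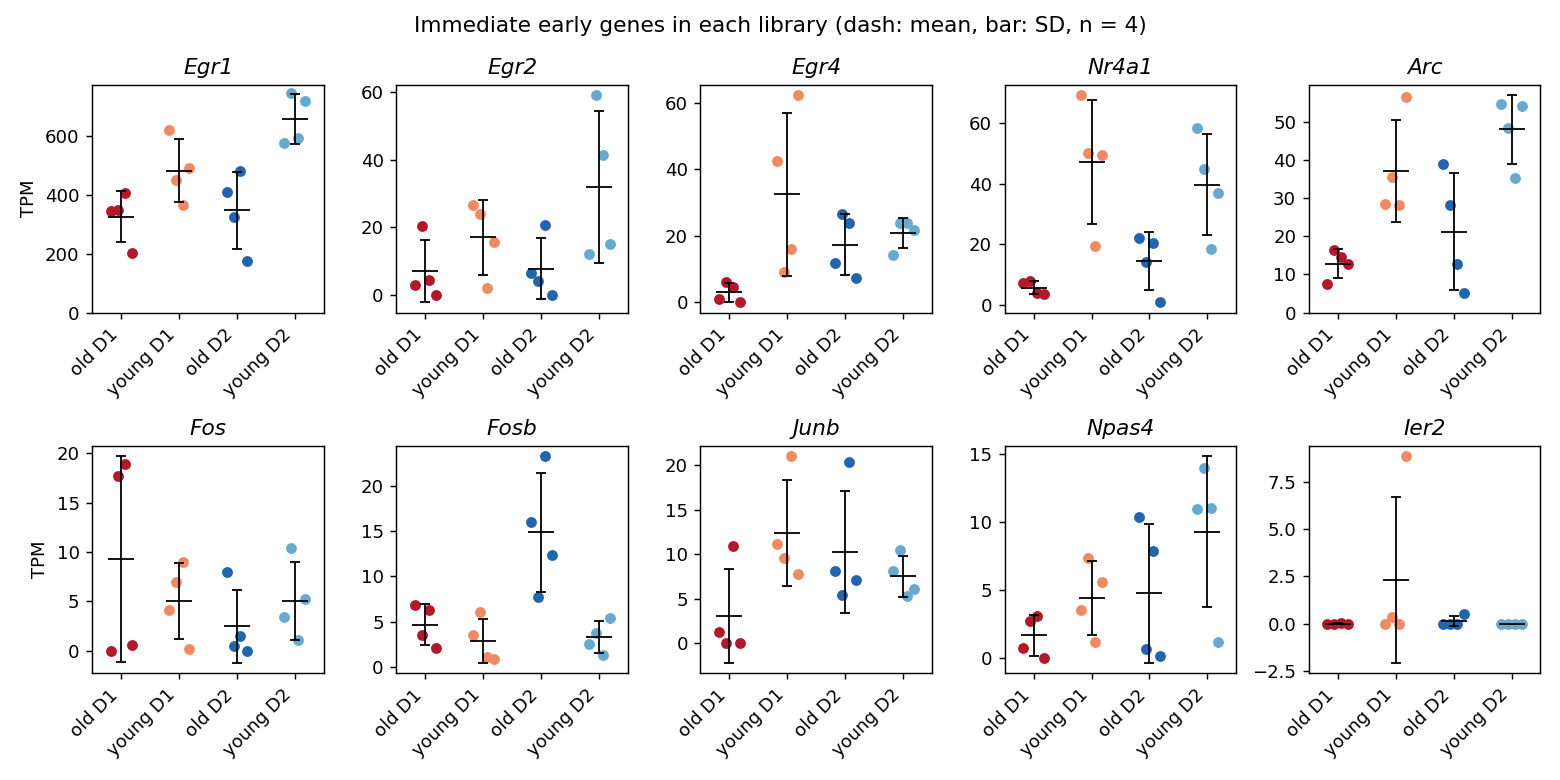
TPM of each of the 10 genes in each of the 16 libraries, in a panel per gene with its own axis, for old D1, young D1, old D2 and young D2 neurons from left to right; points are libraries, dashes the mean and bars the SD (n = 4). Nr4a1 and Arc lie lower in every old D1 library than in any young D1 library, Fosb lies higher in every old D2 library than in any young D2 library, and Ier2 is at or near 0 except for 1 young D1 library at 8.87 TPM.

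Age was compared first within D1 neurons. Of the 9 members that passed the filter on low counts, 3 were lower in old D1 than in young D1 neurons and none was higher, by edgeR's quasi-likelihood test with a Benjamini-Hochberg adjusted p under 0.05 over 13926 genes. Over all tested genes, 5.44% were called lower, 5.39% higher and 10.8% in either direction. The 3 genes were Nr4a1, Egr4 and Arc, and in each the 4 old values lay below the 4 young ones, which is so for 7.6% of tested genes. The median log2 fold change of the 9 was -1.61, against -0.06 over all tested genes, and 7 of the 9 were negative. In these bulk pulldowns, fewer cells carrying a transcript and less transcript per cell cannot be told apart.

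Nr4a1 (also called Nur77; ENSMUSG00000023034, chr15:101254269-101274795, GRCm38) encodes an orphan nuclear receptor that binds DNA without a known ligand and is a standard marker of dopamine-regulated activity in the striatum. It stood at 7.48, 8.16, 3.98 and 3.85 TPM in old D1 neurons, against 68.94, 50.06, 19.57 and 49.41 TPM in young D1 neurons. The highest old value is less than the lowest young one, young replicate 3. The log2 fold change was -3.10 (SE 0.68, adjusted p = 0.00681 by edgeR), an 8.58-fold lower level, and it was negative in 17 of 17 alternative settings, between -3.38 and -2.31. Nr4a1 was called in 16 of those 17, the exception being limma-voom with library weights (adjusted p = 0.171).

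Egr4 (ENSMUSG00000071341, chr6:85511121-85513589) encodes a zinc-finger factor of the Egr family. Its values were 1.13, 6.09, 4.63 and 0.06 TPM in old D1 neurons, against 42.58, 9.16, 15.96 and 62.23 TPM in young D1 neurons. The groups do not overlap, but young values spread over a wide range, with replicates 1 and 4 high and 2 and 3 low. The log2 fold change was -3.64 (SE 0.94, adjusted p = 0.0185 by edgeR). Egr4 was called in 13 of 17 alternative settings. By edgeR the call ended without young D1 replicate 4 (-3.0, adjusted p = 0.0676) and with the compared groups alone (adjusted p = 0.127). It also ended by limma-voom (adjusted p = 0.218) and after removal of a GC and length trend. Without old D1 replicate 2 the log2 fold change was -4.29.

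Arc (ENSMUSG00000022602, chr15:74669083-74672570) is the effector of the group. Its protein acts at synapses, where it promotes the removal of AMPA-type glutamate receptors from the membrane. Arc stood at 7.60, 16.43, 14.53 and 12.75 TPM in old D1 neurons, against 28.59, 35.52, 28.12 and 56.60 TPM in young D1 neurons. All old values lie below all young values, and young replicate 4 is the highest. The log2 fold change was -1.66 (SE 0.50, adjusted p = 0.0396 by edgeR), a 3.15-fold lower level. This call sat near the threshold. It was kept in 6 of 17 alternatives, and it ended when old D1 replicate 1, 2 or 3 or young D1 replicate 4 or 2 was left out, while leaving out any 1 of these 8 libraries gave a log2 fold change between -1.82 and -1.30.

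Egr1 did not pass in D1 neurons over all genes. It stood at 343.71, 348.26, 406.83 and 202.94 TPM in old D1 neurons, against 620.60, 451.68, 365.10 and 490.46 TPM in young D1 neurons. Old replicate 3 lies above young replicate 3, and the other old values lie below every young one. The log2 fold change was -0.69 (SE 0.26, adjusted p = 0.0901 by edgeR). Egr2, known from hindbrain patterning and myelination and induced by activity in neurons, had 2.89, 20.50, 4.42 and 0.00 TPM in old D1 neurons, against 26.59, 24.03, 1.86 and 15.46 TPM in young D1 neurons. These groups overlap, and the log2 fold change of -0.98 (SE 1.33) did not pass (adjusted p = 0.701 by edgeR). RSEM divides fragments among 7 listed isoforms of Egr2, and its TPM depends on their lengths. Young D1 replicates 1 and 4 had 1052 and 1043 counts of Egr2 at 26.59 and 15.46 TPM.

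Fos, Fosb and Junb encode the subunits of the AP-1 factor, in which a Fos protein pairs with a Jun protein. Fos was at 0.00, 17.69, 18.92 and 0.60 TPM in old D1 neurons, against 4.12, 6.97, 8.94 and 0.14 TPM in young D1 neurons. Old replicates 2 and 3 are high and 1 and 4 are near nothing, so the old group encloses the young one. Fosb was at 6.85, 3.56, 6.25 and 2.07 TPM in old D1 neurons, against 3.52, 6.09, 1.07 and 0.91 TPM in young D1 neurons. Junb was at 1.26, 0.00, 10.89 and 0.00 TPM in old D1 neurons, against 11.10, 9.52, 21.03 and 7.80 TPM in young D1 neurons. Old Junb values are low in 3 libraries, and old replicate 3 lies within the young range. None of the 3 passed by edgeR: Fos had a log2 fold change of 0.81 (SE 1.62), Fosb 0.60 (SE 0.73) and Junb -2.17 (SE 1.38). Junb passed in 4 of 16 alternatives: without old D1 replicate 3, where it was -5.01 (adjusted p = 0.0358 by edgeR), and in the 3 limma-trend fits on log2 TPM with all libraries (adjusted p = 0.0272, 0.0232 and 0.043).

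Npas4 encodes a factor that calcium entry induces selectively in neurons and that, in mouse, controls inhibitory synapses. It had 0.72, 2.71, 3.09 and 0.00 TPM in old D1 neurons, against 3.49, 7.35, 1.12 and 5.59 TPM in young D1 neurons. The groups overlap and the log2 fold change was -1.61 (SE 1.31, adjusted p = 0.474 by edgeR). Ier2, a short-lived nuclear protein, was listed at 0 in 3 of 4 old D1 libraries and 2 of 4 young D1 libraries, reached 8.87 TPM in young D1 replicate 4, and did not pass the filter on low counts. A count of 0 allows up to 0.133 TPM of Ier2 in the old D1 library where this limit is highest, if 3 fragments are taken as the limit. The same limit is 0.195 TPM for Fos in old D1 replicate 1 and 0.0986 TPM for Junb in old D1 replicate 4.

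**Figure D2:**
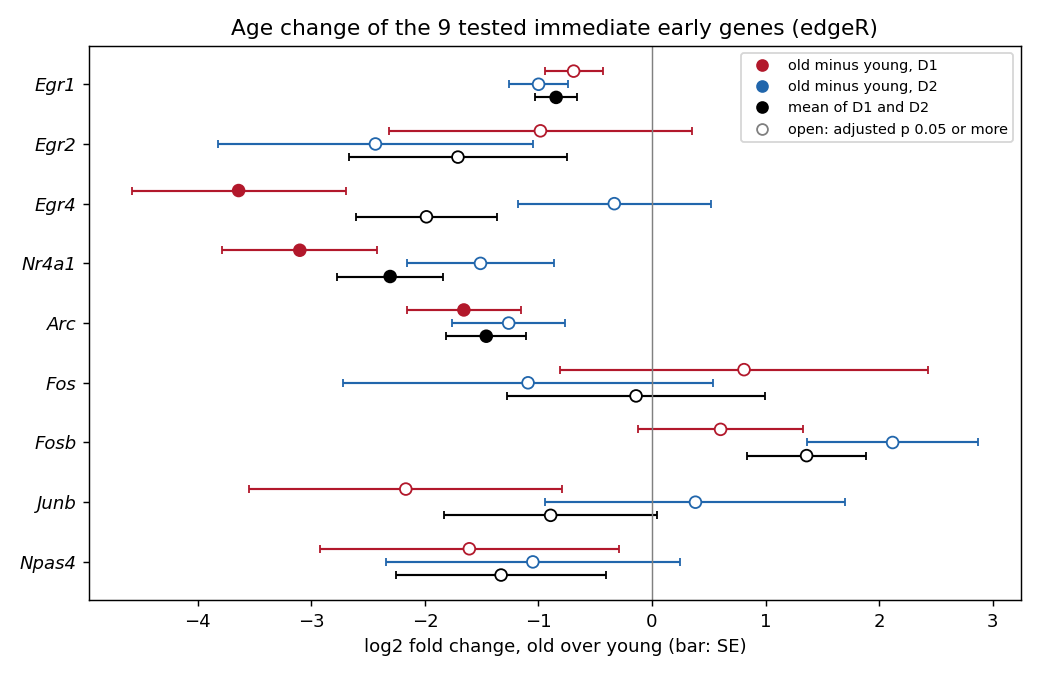
Log2 fold change of old over young neurons for the 9 tested genes by edgeR, with the SE as bars, in D1 neurons, in D2 neurons and as the mean of both; filled points have an adjusted p under 0.05. Nr4a1, Egr4 and Arc are filled in D1 neurons, no gene is filled in D2 neurons, and Nr4a1, Egr1 and Arc are filled for the mean; Fosb lies right of 0 in all 3.

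Other features of the libraries moved along with the D1 age comparison. The members are rich in G and C, from 51.4% for Egr2 to 68.2% for Egr4, against a median of 49.9% for tested genes, and old D1 libraries had shorter fragments. When a smooth trend on GC content and length was removed from each library, Nr4a1 had a log2 fold change of -2.31 and stayed called (adjusted p = 0.0451 by edgeR), Egr4 had -1.86 (adjusted p = 0.199) and Arc had -0.75 (adjusted p = 0.374). Of the cell type markers, the 8 glutamatergic ones summed to 162 to 274 TPM in old D1 neurons against 458 to 952 TPM in young D1 neurons. Emx1 was at 0 in every old D1, old D2 and young D2 library. Most of the glutamatergic sum is Nrgn (175 ± 37.9 TPM in old D1 and 657 ± 248 TPM in young D1 neurons). Nrgn is the 1 marker of the 5 tested that was called (0 with the GC and length trend removed). Of the 5, 2 had a positive and 3 a negative log2 fold change. The 5 cholinergic ones summed to 0 to 2.03 TPM in old D1 neurons against 6.87 to 30.5 TPM in young D1 neurons, with Gbx2 and Lhx8 at 0 in old D1. Of 4 cholinergic markers tested, 4 were negative and 1 was called lower. The 9 microglia markers summed to 15.9 to 35.6 TPM in old D1 against 1.19 to 22.6 TPM in young D1 neurons. Of 7 tested, 3 were positive and 4 negative with 0 called. Tmem119 was at 0 in old D1 and in young D2, and C1qa was at 0 in all 4 groups. The 10 markers of all spiny projection neurons summed to 5625 to 6118 TPM in old D1 against 7574 to 10250 TPM in young D1 neurons, with 3 called lower, and 4 once the GC and length trend was removed. Ppp1r1b is the most abundant of the 10, at a mean of 3441 TPM over the 16 libraries. The median log2 fold change of the 10 was -0.21, against -0.06 over all tested genes, and 8 of the 10 were negative. The 10 D1 markers went the other way, with 5455 to 8702 TPM in old D1 against 3106 to 3934 TPM in young D1 neurons, and 2 were called higher. Of 8 oligodendrocyte markers 7 were negative, of 8 D2 markers 7 were positive, and 0 of either were called. Of 7 tested GABAergic markers 4 were positive and 3 negative, with 1 called higher. Astrocyte markers (9 tested) and endothelial and mural markers (3 tested) had 0 called. The part of these cell types in the result was not tested.

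In D2 neurons the same genes were set against age. Of the 9 tested members, 0 passed by edgeR, where 0.079% of all tested genes passed. DESeq2 called 1 (and 182 of 19345 genes), and limma-voom called 1 (and 167 of 13926 genes). At an unadjusted p under 0.05 by edgeR there were 4, with 3 lower and 1 higher, against 5.75% of all tested genes (2.74% lower and 3.01% higher). The median log2 fold change of the 9 was -1.05, against 0.01 over all tested genes, and 7 of the 9 were negative. Marker levels differed here too. The 10 D1 markers summed to 523 to 889 TPM in old D2 neurons against 191 to 212 TPM in young D2 neurons, with 4 called higher, none at 0 and 10 of 10 positive. Drd1 itself stood at 67.6 ± 16.7 TPM in old D2 and 8.31 ± 2.54 TPM in young D2 neurons (log2 2.95, adjusted p = 2.86e-05 by edgeR). The 10 astrocyte markers summed to 117 to 149 TPM in old D2 against 72.1 to 102 TPM in young D2 neurons, and the 9 microglia markers to 12.9 to 25.5 TPM in old D2 against 0.74 to 5.41 TPM in young D2 neurons, with 0 called of either. The 10 markers of all spiny projection neurons went the other way. They summed to 9586 to 10651 TPM in old D2 against 10823 to 12373 TPM in young D2 neurons, with 10 of 10 negative, 0 called and a median log2 fold change of -0.27. The part of these cell types in the values below was not tested.

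Egr1 stood at 408.25, 325.98, 481.43 and 175.42 TPM in old D2 neurons, against 577.63, 744.85, 593.51 and 717.76 TPM in young D2 neurons. All old values lie below all young ones, a pattern found in 2.64% of tested genes, and replicate 4 is the lowest. The log2 fold change was -1.0 (SE 0.26, adjusted p = 0.309 by edgeR), and limma-voom with library weights called it (-1.20, adjusted p = 0.0025). Nr4a1 stood at 22.21, 14.31, 20.51 and 1.07 TPM in old D2 neurons, against 58.27, 44.85, 18.49 and 36.81 TPM in young D2 neurons. The lowest young value lies within the old range, and the log2 fold change was -1.51 (SE 0.64, adjusted p = 0.749 by edgeR). Arc stood at 39.10, 28.15, 12.76 and 5.05 TPM in old D2 neurons, against 54.71, 48.44, 35.27 and 54.13 TPM in young D2 neurons. Here old replicate 1 lies above young replicate 3, and the log2 fold change was -1.26 (SE 0.50, adjusted p = 0.726 by edgeR). Old D2 replicate 4, the shallowest library, had the lowest old value of all 3 genes; without it the log2 fold changes were -0.76 for Egr1, -1.12 for Nr4a1 and -0.93 for Arc.

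Fosb ran the other way. It stood at 16.03, 7.78, 23.27 and 12.36 TPM in old D2 neurons, against 2.52, 3.80, 1.34 and 5.46 TPM in young D2 neurons. Every old value is above every young one, as in 4.43% of tested genes. The log2 fold change was 2.12 (SE 0.75, adjusted p = 0.649 by edgeR), a 4.34-fold higher level. DESeq2 called it (adjusted p = 0.0434), and leaving out any 1 library gave 1.78 to 2.45. The gene's truncated product, delta-FosB, is known to accumulate in spiny projection neurons after repeated stimulation. The tables list 1 isoform of Fosb (3751 bases), so the full-length and truncated mRNAs cannot be told apart.

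The other members overlapped between the ages in D2 neurons. Egr4, at 11.72, 26.66, 23.81 and 7.37 TPM in old D2 neurons against 14.12, 23.81, 23.72 and 21.67 TPM in young D2 neurons, had a log2 fold change of -0.33 (SE 0.85) with a 95% interval of -2.0 to 1.33. Egr2 had 6.34, 3.91, 20.60 and 0.00 TPM in old D2 neurons, against 12.06, 59.16, 41.39 and 15 TPM in young D2 neurons. Its log2 fold change was -2.44, and only old replicate 3 lies within the young range. Npas4 had 10.34, 0.63, 7.82 and 0.15 TPM in old D2 neurons, against 10.91, 13.96, 11.01 and 1.18 TPM in young D2 neurons. Npas4 lay between 7.82 and 13.96 TPM in 5 of these 8 libraries and at 1.18 TPM or less in the other 3. Fos ranged from 0.00 to 7.93 TPM in old D2 neurons and from 1.07 to 10.41 TPM in young D2 neurons. Junb ranged from 5.45 to 20.35 TPM in old D2 neurons and from 5.32 to 10.51 TPM in young D2 neurons, with a log2 fold change of 0.38 (SE 1.32). Ier2 was at 0 in 3 of 4 old D2 libraries and in 4 of 4 young D2 libraries.

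Whether the age changes differ between the kinds of neuron was tested as an interaction. Of the 9 members, 0 passed by edgeR, where 1.77% of all tested genes passed, and 1 had an unadjusted p under 0.05, against 16.9% of all tested genes. DESeq2 and limma-voom also called 0. The gene with the small unadjusted p was Egr4, whose D1 age change minus its D2 age change was -3.31 on the log2 scale (SE 1.23, adjusted p = 0.168 by edgeR). Over 24 alternative settings this difference ran from -3.96 to -1.49, and it was called in 0. For Nr4a1 the difference was -1.59 with a 95% interval of -3.35 to 0.17, and for Egr1 it was 0.31 with an interval of -0.40 to 1.02. The falls of Nr4a1 and Arc in D1 neurons are therefore not shown to differ from their values in D2 neurons.

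An average of the age changes of D1 and D2 neurons, from the same fit and chosen after the separate values were seen, uses all 16 libraries. Of the 9 members, 3 were lower and none higher in old neurons by edgeR, against 2.42% of all tested genes called lower and 5.02% in either direction. Nr4a1 had a mean log2 fold change of -2.31 (SE 0.47, adjusted p = 0.00744) and was called in 24 of 24 alternative settings. Egr1 had -0.84 (SE 0.18, adjusted p = 0.0109) and was called in 23 of 24, with values between -0.96 and -0.74. Arc had -1.46 (SE 0.35, adjusted p = 0.0211) and was called in 22 of 24; the call ended without young D1 replicate 4 (adjusted p = 0.0516) and after removal of the GC and length trend (adjusted p = 0.0938). Egr4 had -1.99 (SE 0.62, adjusted p = 0.0704) and Fosb 1.36 (SE 0.52, adjusted p = 0.138), and neither passed. Along with these values, 4 of 10 D1 markers and 1 of 9 tested astrocyte markers were called higher, and 3 of 10 markers of all spiny projection neurons and 1 of 4 tested cholinergic markers lower. Of 7 tested GABAergic markers 1 was called higher, and of 5 glutamatergic ones 1 lower. Their part in the result was not tested.

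**Figure D3:**
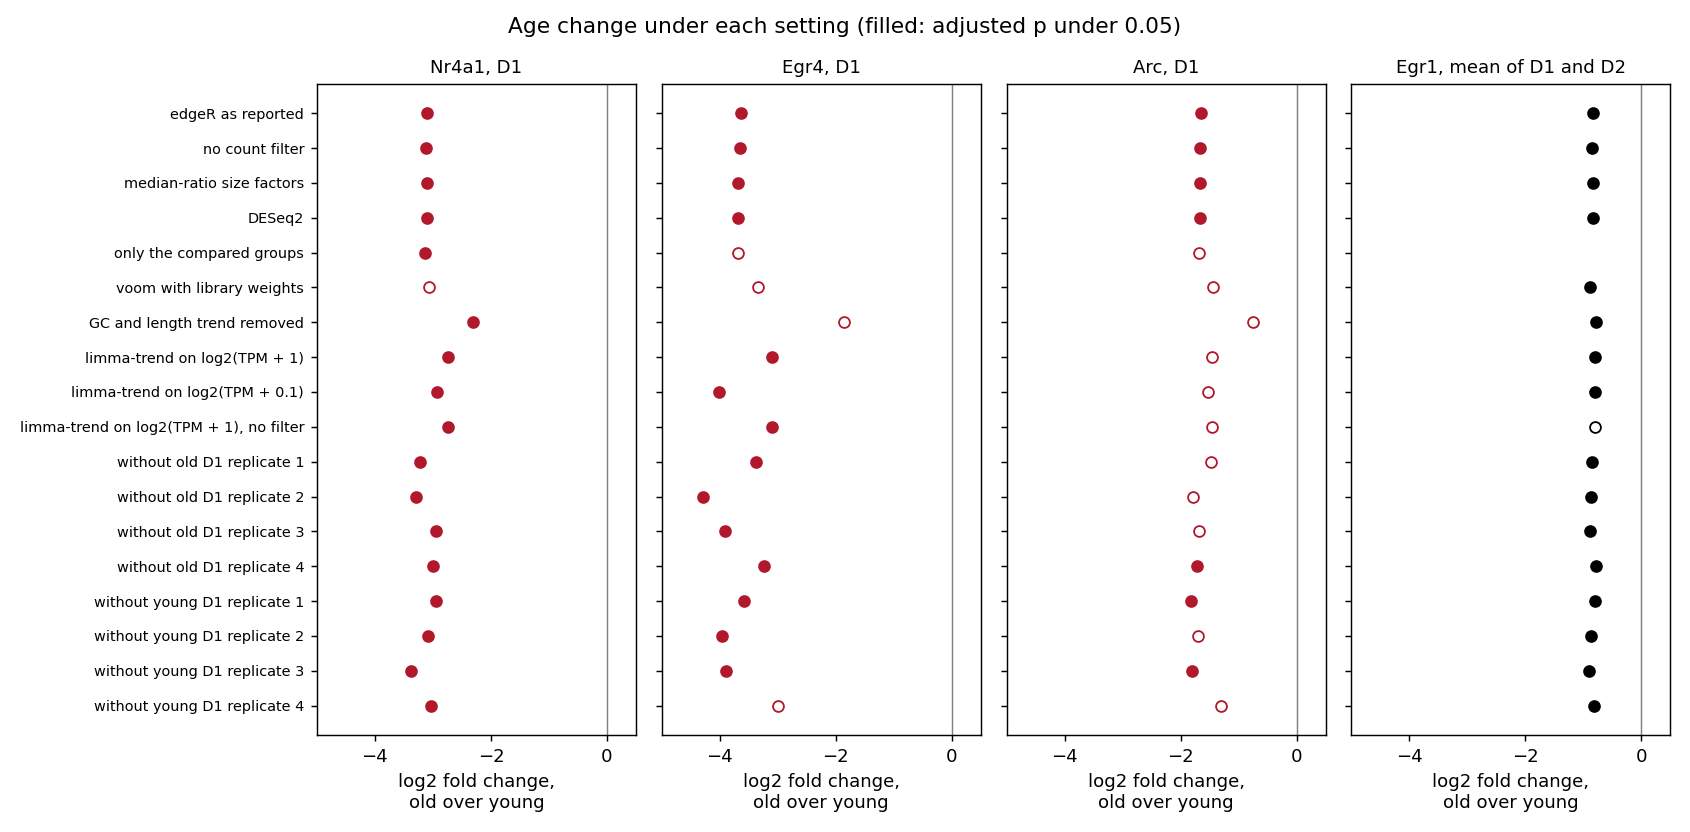
Log2 fold change of old over young neurons under each processing setting, for Nr4a1, Egr4 and Arc in D1 neurons and for Egr1 as the mean of D1 and D2 neurons; filled points have an adjusted p under 0.05. The values of all 4 genes stay left of 0; removal of the GC and length trend moves Egr4 from -3.64 to -1.86 and Arc from -1.66 to -0.75, and Egr1 moves between -0.96 and -0.74.

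The kinds of neuron were also compared at each age. At 42 days 0 of 9 members passed by edgeR, against 0.409% of all tested genes, and 0 had an unadjusted p under 0.05, against 6.01%. DESeq2 and limma-voom also called 0. Egr1 averaged 482 ± 106 TPM in young D1 neurons and 658 ± 85.1 TPM in young D2 neurons, and its log2 fold change of D1 over D2 was -0.33 with a 95% interval of -0.83 to 0.17. For Arc the interval was -1.17 to 0.75, and for Nr4a1 it was -0.86 to 1.61, so differences of about that size are not excluded. At 2 years 0 of 9 passed by edgeR, against 9.6% of all tested genes, and 2 had an unadjusted p under 0.05, against 25.4%, both lower in old D1 neurons. DESeq2 called 2 of 8 members and 2769 of 19345 genes, and limma-voom called 0 members and 655 of 13926 genes. Egr4 averaged 2.98 ± 2.85 TPM in old D1 neurons and 17.4 ± 9.30 TPM in old D2 neurons, and every old D1 value lies below every old D2 one (log2 fold change -2.49, SE 0.90, adjusted p = 0.0854 by edgeR). Fosb averaged 4.68 ± 2.25 TPM in old D1 neurons and 14.9 ± 6.54 TPM in old D2 neurons, also without overlap (log2 fold change -1.60, SE 0.74, adjusted p = 0.182 by edgeR). Such a gap with D1 lower is found in 10.2% of tested genes at this age.

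Replicate libraries of 1 group differed more in most of these genes than in the median gene of like abundance. The biological coefficient of variation that edgeR fits, the spread between replicates of a group beyond counting error, lay above the median of genes of like abundance in 8 of 9 members. Egr2 had 122% against a median of 74.9%, higher than 97.4% of the genes compared. Egr1 had 28.4% against 23.9%, and Nr4a1 had 62.6% against 53.3%. Fosb was the exception, with 71.7% against 84.2%.

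The members' values were also compared from library to library within a group. Deviations of log2 CPM (counts scaled to library size) from the group mean were correlated over the 16 libraries, in 36 pairs of genes, as a description. Pearson's r was positive in 33 pairs, over 0.5 in 11, and 0.38 at the median. Egr2 and Npas4 had the highest r, 0.89 (Spearman's rho 0.86), and it was 0.75 without the 2 libraries in which Egr2 lay farthest from its median. Only the first gene of a pair set which 2 libraries were left out. Egr1 and Egr2 had r = 0.87, and 0.79 without 2 libraries. Arc and Nr4a1 had 0.71 (Spearman's rho 0.51), and 0.24 without the 2 libraries in which Arc lay farthest from its median. Junb and Arc had the lowest r, -0.18. The points share libraries and depth. For a mean over the tested members, each gene's deviations were first divided by their SD. This mean deviation, in SD units, was lowest in old D2 replicate 4 (-1.58) and old D1 replicate 4 (-1.27). The first is the shallowest library and the second the library with the fewest genes. Pairs of other genes were not measured for comparison.

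**Figure D4:**
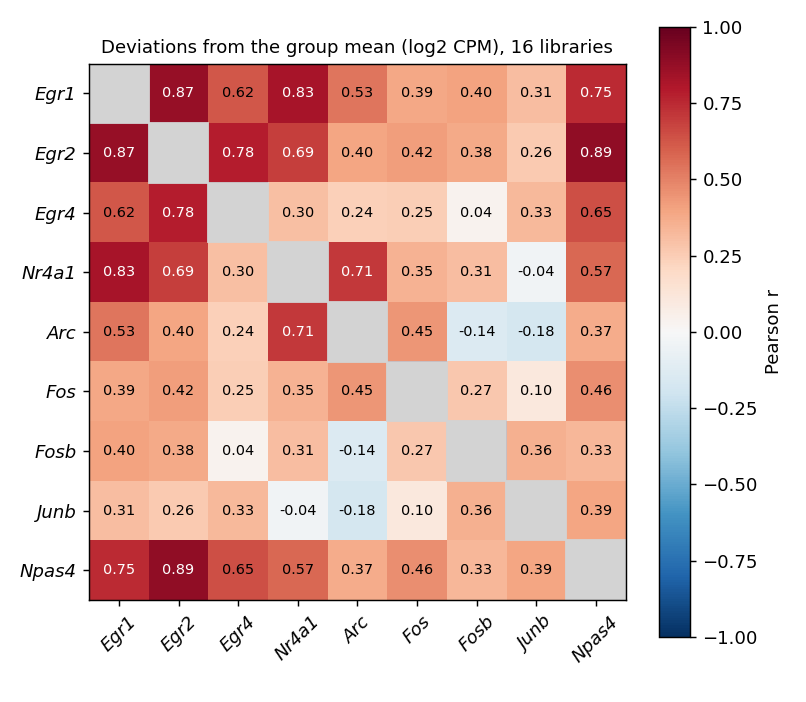
Pearson's r between each pair of the 9 tested genes, over the deviations of 16 libraries from their group mean in log2 CPM; red is positive and blue negative. The pairs among Egr1, Egr2 and Npas4 lie between 0.75 and 0.89, and the pairs of Arc with Fosb (-0.14) and with Junb (-0.18) are negative.

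Among 9791 other genes with a mean of at least 5 TPM, 10 were named. Their deviations over the 16 libraries were most like the members' mean deviation in SD units. Slitrk3 (r = 0.89), a synaptic adhesion protein, led, followed by Etv5 (0.89), an ETS-family factor induced by growth factor signals, 2610507B11Rik (0.88), Vopp1 (0.87) and Tenm3 (0.86), a teneurin adhesion protein. The rest were Hs2st1 (0.84), Cacng4 (0.84), an auxiliary subunit of AMPA receptors, Ppp2r2b (0.83), Arpc2 (0.83) and Sms-ps (0.82). The 95th percentile over all 9791 genes was 0.58. Without the 2 libraries in which the members' mean deviation lay farthest from its median, the 10 had r between 0.55 and 0.74.

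Other genes of the early response were read from lists. Of 31 other early response regulators, 26 were tested, and in D1 neurons with age 0 were called higher and 2 lower by edgeR, near the share over all genes (5.39% higher and 5.44% lower), with a median log2 fold change of -0.06 that equals the median of all tested genes. The pair was Per1, a clock gene induced by cyclic AMP (13.5 ± 6.80 TPM in old D1 and 32.5 ± 13.4 TPM in young D1 neurons; log2 -1.55, adjusted p = 0.0271), and Ier5 (34.6 ± 18.8 TPM in old D1 and 81.7 ± 28.9 TPM in young D1 neurons; log2 -1.34, adjusted p = 0.03). With the GC and length trend removed Per1 had -0.77 (adjusted p = 0.256) and Ier5 -1.32 (adjusted p = 0.0347). In D2 neurons 0 of the 26 were called with age by edgeR, and 1 had an unadjusted p under 0.05.

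Effector genes that activity induces, 28 tested of 32, gave 1 higher and 0 lower in D1 neurons and 0 higher and 2 lower in D2 neurons with age. Over all tested genes the shares were 5.39% and 5.44% in D1 neurons, and 0.0646% and 0.0144% in D2 neurons. With the GC and length trend removed, 0 effectors were higher and 2 lower in D1 neurons (322 and 514 of all 13926 genes). In D2 neurons 0 were then higher and 2 lower (11 and 2 of all 13926 genes). Rgs4, which shortens G protein signals, stood at 361 ± 60.4 TPM in old D2 and 941 ± 47.9 TPM in young D2 neurons (log2 -1.47, adjusted p = 5.99e-04 by edgeR). Homer1 is a postsynaptic scaffold with a short activity-induced form, which was not read apart from the gene total. The Homer1 total stood at 153 ± 46.9 TPM in old D2 and 289 ± 26.8 TPM in young D2 neurons (log2 -1.28, adjusted p = 0.0016 by edgeR). For both, the interaction passed as well: the age change in D1 minus that in D2 was 1.19 for Rgs4 (adjusted p = 0.0232) and 1.05 for Homer1 (adjusted p = 0.0322), and neither passed with the GC and length trend removed (adjusted p = 0.157 and 0.553). Rgs2, the gene higher in old D1 neurons, had a log2 fold change of 0.79 (adjusted p = 0.0356), and 0.23 with that trend removed (adjusted p = 0.613).

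All 31 genes of the signalling that leads to the early genes were tested. With age 6 were called higher and 5 lower in D1 neurons by edgeR, and 0 in D2 neurons, where 4 had an unadjusted p under 0.05. Over all tested genes 5.39% were higher and 5.44% lower in D1 neurons, and in D2 neurons 0.079% passed and 5.75% had an unadjusted p under 0.05. In D1 neurons Ppp3ca, a catalytic subunit of calcineurin, had a log2 fold change of 0.98 (adjusted p = 0.00201), and Crebbp, the coactivator that binds phosphorylated CREB, had 1.08 (adjusted p = 0.00575). Ppp1r1b, which encodes DARPP-32, the phosphatase inhibitor that dopamine signals act on, had -1.29 (adjusted p = 1.14e-04), Mef2d had -1.08 (adjusted p = 0.00482) and Camkk2 had -0.91 (adjusted p = 0.00601). With the GC and length trend removed 4 were higher and 1, Camkk2, lower. Ppp1r1b then had -0.49. Heat shock genes, another set that responds fast to a stimulus, gave 3 higher and 0 lower of 8 tested in D1 neurons (5.39% and 5.44% of all genes) and 0 called of 8 in D2 neurons (0.079% of all genes, and 0 of the 8 at an unadjusted p under 0.05). Hsp90aa1 stood at 1619 ± 361 TPM in old D1 and 557 ± 108 TPM in young D1 neurons (log2 1.44, adjusted p = 4.16e-04 by edgeR).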

How the data were processed

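Values are those of 16 TRAP libraries, 4 in each of 4 groups. Per the labels' protocols, RNA was amplified for sequencing by NuGEN Ovation V2. STAR 2.5.1b, RSEM 1.2.20 and build mm10 were used, per the submitters' processing notes; of the annotation release and strand use, no source used here gives a statement. The authors deposited RSEM expected counts per gene, which are estimated counts and need not be whole, and TPM, per the file headers. The deposited isoform tables also give each isoform's share in percent. Of nonzero gene counts, 20.0% were not whole. The kit has no molecular identifiers, so limits drawn from 3 counts cover counting error only. Genes of near-identical sequence share fragments by RSEM's model, and without a stated strand setting overlapping genes may share them too.

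The members and lists were chosen with earlier results of these data known, and the lists lend the members no independent support. Expected counts were rounded and genes kept by filterByExpr, in R 4.3.3 with limma 3.58.1 and edgeR 4.0.16, with TMM scaling and a robust quasi-likelihood fit of 4 group means to all 16 libraries. A call is a two-sided Benjamini-Hochberg adjusted p under 0.05 over 13926 genes, and the steps were tested on simulated data. Other listed genes were named by smallest adjusted p, up to 3 a direction, and some of those are not printed. Alternatives were DESeq2 1.42.0, median-ratio size factors, no filter, limma-voom, limma-trend on log2 TPM with a pseudocount of 1 or 0.1, a fit to the compared groups only, removal of a GC and length trend, and leaving out each library. GC content and positions came from GENCODE M21 (GRCm38), with GC known for 97.3% of tested genes. Libraries of a group are biological replicates per the design text, and no pairing is labelled.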

Additional observations from a re-analysis of the deposited data

Results flagged for a closer look

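Values of 4 libraries were tested for 1 library far from the others in 39 sets of a gene and a group. Chance marks about 1 in 20 where values are normally spread, which values of 0 are not. Junb reached 10.89 TPM in old D1 replicate 3, against 1.26 TPM or less in the other old D1 libraries. Ier2 reached 8.87 TPM in young D1 replicate 4, 0.04 TPM in old D1 replicate 3 and 0.51 TPM in old D2 replicate 4, with most other libraries of those groups at 0. In old D1 and in old D2 the other 3 Ier2 values were 0, and such a set is marked whatever its last value. No difference of age changes between the kinds of neuron passed the test in any of the 9 genes.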

How the results depend on the processing

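The count of members called for age in D1 neurons, 3, was 1 with the compared groups alone, 0 by limma-voom, 1 after removal of the GC and length trend, and 1 to 3 with a library left out (1 without young D1 replicate 4). In D2 neurons the count of 0 was 1 by DESeq2 and 1 by limma-voom. Between D1 and D2 at 2 years the count of 0 was 2 by DESeq2, 1 by limma-trend on log2(TPM + 1), with or without a filter, and 2 on log2(TPM + 0.1). The count for the mean age change, 3, was 5 by DESeq2. DESeq2 gave an adjusted p for 8 members. Of 19345 genes it called 182 for age in D2, 2769 for D1 against D2 at 2 years and 1821 for the mean age change. For D1 against D2 at 2 years limma-trend called 1604 of 12851 genes on log2(TPM + 1), 1366 of 19353 without a filter, and 1681 of 12851 on log2(TPM + 0.1). In the 3 limma-trend fits the D1 count stayed 3, but Junb took the place of Arc. The median log2 fold change of all genes for age in D1, -0.06 as reported, was -0.38 by limma-voom, -0.18 with the GC fit and -0.27 on log2(TPM + 0.1), so a member's value there is read against it.

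No called gene reversed. Under settings other than leaving out a library, 21 gene values changed sign, none of them called. For age in D1, Fos became -1.47 (limma-voom) and -0.36 (TPM + 0.1). For the difference of age changes, Arc became 0.0735 (limma-voom), 0.62 (GC removed) and 0.0065 (TPM + 0.1), and Npas4 1.06, 0.17 and 0.0775 (limma-voom, GC removed, TPM + 1 with or without a filter). At 42 days, Fos became -0.0231 (GC removed), -0.12 (TPM + 1, with or without a filter) and -0.46 (TPM + 0.1), and Fosb 0.0282 (limma-voom). At 2 years, Egr1 became 0.28 (limma-voom) and 0.30 (GC removed), Egr2 -0.20 (TPM + 1, with or without a filter) and -0.24 (TPM + 0.1), Arc 0.30 (GC removed) and Npas4 0.29 (limma-voom). The causes were not tested.

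Leaving out 1 library changed the sign of 22 values, all uncalled. Values ranged from -0.24 to 0.59 for Junb with age in D2 and from -1.07 to 0.16 for Fos in the mean age change. For the difference of age changes they ranged from -0.10 to 2.99 for Egr2, from -0.76 to 0.0427 for Arc and from -1.05 to 0.10 for Npas4. At 42 days the ranges were -0.33 to 0.72 for Fos and -0.75 to 0.24 for Fosb, and at 2 years -0.29 to 0.20 for Egr1 and -0.84 to 2.26 for Egr2. The mean age change had 2 to 4 members called with a library left out.

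Over all genes, 1508 were called for age in D1 neurons, against 2929 by DESeq2, 305 with the compared groups alone, 547 by limma-voom and 836 after removal of the GC and length trend. In D2 neurons 11 were called, against 182 by DESeq2, 39 with the compared groups alone and 167 by limma-voom. Of the D1 calls 750 were higher and 758 lower, against 392 and 155 by limma-voom and 322 and 514 with the trend removed. No paired analysis was possible because the labels give no replicate numbers shared between groups.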
